A study of Mus musculus with 18 samples.

Results

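Genes that low oxygen is known to induce were followed through normal mouse liver and chemically induced liver tumours: Adm, Vegfa, Egln3, Slc2a1, Ldha, Pdk1, Bnip3, Ndrg1, Ankrd37 and Car9. These 10 genes, of 18193 with a probe set of their own, were chosen by name, and every probe set that the platform table assigns to 1 of them was taken, 22 in all. Of these, 18 probe sets exceeded a log2 signal of 4 on at least 3 of the 18 arrays, and 9 of the 10 genes had such a probe set and were tested. Car9 was not tested. Adm, Ndrg1, Egln3, Vegfa, Pdk1 and Slc2a1 had more than 1 probe set.

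The arrays, 1 a sample, come from a study of hepatocellular carcinoma (HCC) in male mice, which asked about Tlr4, the receptor for bacterial lipopolysaccharide, and about the gut microbiota. Untreated wild-type (WT) C3H/HeOuJ mice aged 15 weeks gave 3 samples of normal liver. The other 15 samples were dissected tumours of mice aged 54 weeks, all of which had received the carcinogen DEN (100 mg/kg) in week 12 and the hepatotoxin CCl4 (0.5 ml/kg) repeatedly between weeks 13 and 23. They were 7 tumours of WT C3H/HeOuJ mice, 5 of C3H/HeJ mice and 3 of WT C3H/HeOuJ mice on antibiotics. C3H/HeJ is the related strain whose Tlr4 carries P712H, a change that blunts the response to lipopolysaccharide, so the Tlr4 change and any other difference between the strains cannot be told apart. The antibiotics were vancomycin at 500 mg/l with metronidazole, neomycin and ampicillin at 1 g/l of each, in the water from week 10 to week 54. Arrays are named below by the sample numbers of the labels. Whether each sample of a group is from another animal is not given in the sources used here, and p-values therefore reflect a spread among samples that could be technical.

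Cells adjust to low oxygen through the hypoxia-inducible factors (HIFs), whose alpha subunits are hydroxylated by the EGLN enzymes when oxygen is present, bound by the von Hippel-Lindau protein Vhl and degraded. When oxygen falls, the alpha subunits persist, pair with Arnt and bind short DNA elements with the core letters ACGTG or GCGTG. The genes switched on bring in vessels, move glucose into the cell, turn pyruvate to lactate and spare mitochondrial oxygen use, and the liver has a standing oxygen gradient along its lobule.

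Promoter windows from RefSeq (build GRCm38.p6), from 250 bases before to 50 bases after a start site, were found for 9 of the 10 genes, 12 windows in all. Ndrg1 was not among them. The HIF core letters ACGTG or GCGTG were searched on both strands, where the opposite strand reads CACGT or CACGC, and a palindromic CACGTG was counted on both strands. They occurred in 10 of the 12 windows (83.3%), against 43.8% of all 32851 windows and 69.2% of the windows with at least 60% G or C. The median G or C content was 60.7% in the windows of these genes and 52.7% in all windows. A match is a description of the letters and not a measured binding site. The following 160-base stretches upstream of the start were chosen because they hold several matches, with the matches in capitals, read 5′ to 3′ on the strand of the gene. They hold 2 matches in Adm, 3 in Ankrd37, 2 in Slc2a1, 5 in Ldha and 5 in Bnip3.
Adm (chr7:110627497-110627656, plus strand): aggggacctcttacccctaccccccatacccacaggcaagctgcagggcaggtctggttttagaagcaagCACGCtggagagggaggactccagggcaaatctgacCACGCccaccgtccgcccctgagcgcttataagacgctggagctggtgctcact
Ankrd37 (chr8:45999851-46000010, minus strand): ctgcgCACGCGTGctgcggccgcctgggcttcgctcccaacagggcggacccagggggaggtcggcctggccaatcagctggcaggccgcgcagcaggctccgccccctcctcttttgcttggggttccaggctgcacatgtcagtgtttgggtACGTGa
Slc2a1 (chr4:119108585-119108744, plus strand): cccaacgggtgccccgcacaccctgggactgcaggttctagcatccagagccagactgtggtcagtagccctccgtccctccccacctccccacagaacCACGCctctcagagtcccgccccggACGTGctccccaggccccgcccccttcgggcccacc
Ldha (chr7:46845644-46845803, plus strand): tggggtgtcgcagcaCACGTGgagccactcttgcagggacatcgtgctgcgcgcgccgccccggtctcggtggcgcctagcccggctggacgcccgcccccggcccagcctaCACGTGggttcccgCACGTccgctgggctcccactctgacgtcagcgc
Bnip3 (chr7:138909507-138909666, minus strand): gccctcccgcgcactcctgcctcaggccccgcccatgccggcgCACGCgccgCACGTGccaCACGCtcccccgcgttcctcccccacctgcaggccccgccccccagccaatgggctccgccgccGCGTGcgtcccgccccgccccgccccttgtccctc

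All 9 genes with a window held a match. They include Adm, Ankrd37 and Slc2a1, which peaked in the same 3 tumours, and Ldha and Bnip3, which did not. The presence of the letters can therefore not be compared between such genes.

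The median log2 signal of the kept probe sets lay between 6.69 and 6.85 on all arrays. Normal livers differed from tumours in array controls too. For Gapdh, the 3′ probe set exceeded the 5′ one by 1.37 to 1.61 in normal liver and 0.20 to 1.02 in tumours (log2), for beta-actin by 3.59 to 4.20 and 1.85 to 2.79, and the dap spike-in control read 10.53 to 10.60 and 1.24 to 1.91. When tumours are set against normal liver, RNA quality, labelling, age and tissue cannot be told apart. Hepatocyte markers were high throughout, with a log2 of their summed signal of 16.73 to 17.06 on all 18 arrays, lowest in WT tumours 17 and 19 (16.73 in each). Summed erythroid markers were 8.80 to 9.19 in normal liver and 5.14 to 7.73 in tumours, and neutrophil markers 4.46 to 4.53 and 5.0 to 9.24 (log2). Of 3 erythroid markers on the arrays 1 was kept, and of 4 neutrophil markers 2 were. The other markers of both lists were below log2 4 throughout. The part of these cells in the changes from normal liver was not tested.

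**Figure D1:**
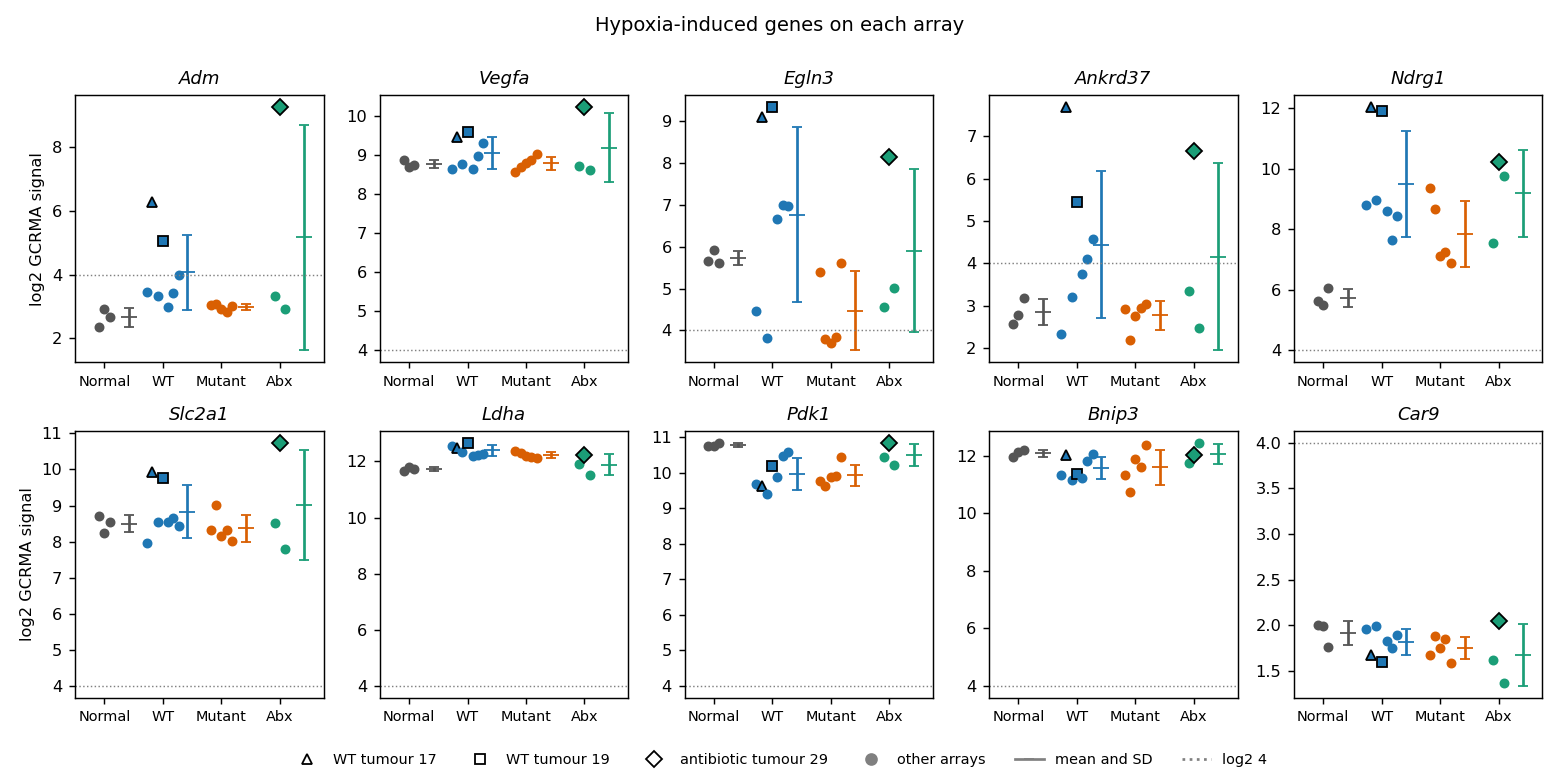
Log2 GCRMA signal of each gene (vertical axis, with its own range in each panel) on each of the 18 arrays, by group on the horizontal axis (Abx, antibiotic). Bars are the mean and SD, the dotted line is log2 4, and outlined symbols mark WT tumours 17 and 19 and antibiotic tumour 29, which hold the 3 highest values of Adm, Vegfa, Egln3, Ankrd37, Ndrg1 and Slc2a1.

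Adm encodes adrenomedullin, a secreted peptide that widens vessels and acts on endothelium. Its log2 signal was 2.36, 2.93 and 2.67 in normal livers 1 to 3, and 2.84 to 3.06 in the 5 Tlr4-mutant tumours. WT tumours ran from 2.97 to 6.28 with a median of 3.46, and the antibiotic tumours read 3.33, 9.26 and 2.91. Thus Adm was above log2 4 on 3 arrays, WT tumour 17 (6.28), WT tumour 19 (5.06) and antibiotic tumour 29 (9.26), and below it on the other 15. The second probe set of Adm, which was too dim to be kept, put the same 3 arrays first with 3.84, 3.40 and 6.93. All 7 WT tumours lay above all 3 normal livers, but the group means of 4.07 ± 1.19 (SD, n = 7) and 2.65 ± 0.29 (n = 3) were not separated by limma (adjusted p = 0.271). Without antibiotic tumour 29 the limma adjusted p was 0.0432, and without the 3 high arrays it was 0.00814. In that last fit every array of both groups lay below log2 4.

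Vegfa encodes the main growth factor of blood vessels. Its log2 signal was 8.86, 8.68 and 8.75 in normal liver and 8.62 to 9.58 in WT tumours, with a median of 8.98. It was 8.55 to 9.01 in Tlr4-mutant tumours and 8.72, 10.21 and 8.62 in the antibiotic tumours. The highest value was again that of antibiotic tumour 29, followed by WT tumours 19 (9.58), 17 (9.45) and 22 (9.29), and the groups overlapped. No contrast of this probe set passed, and the change of WT tumours from normal liver was 0.28 ± 0.29 (log2, SE; limma adjusted p = 0.455). A second probe set of Vegfa had means of 4.24 ± 0.31 in WT tumours and 3.48 ± 0.33 in normal liver (log2, SD), and passed when probe sets were tested one by one (limma adjusted p = 0.0424), with every normal liver below log2 4.

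Egln3 encodes one of the oxygen-dependent hydroxylases that mark HIF for degradation and is itself induced by HIF. Normal livers read 5.65, 5.91 and 5.60 on the log2 scale. WT tumours covered the widest range, with 4.45, 9.10, 3.83, 9.32, 6.67, 6.99 and 6.96 in tumours 16 to 22. Tlr4-mutant tumours 23 to 27 read 5.40, 3.81, 3.7, 3.85 and 5.62, and antibiotic tumours 28 to 30 read 4.56, 8.13 and 5.02. Normal livers were within 0.31 of each other, whereas tumours lay on both sides of them: WT tumours 16 and 18 and 4 of the 5 Tlr4-mutant tumours were below every normal liver, and WT tumours 17 and 19 to 22 above. Antibiotic tumours 28 and 30 were also below every normal liver, and antibiotic tumour 29 above. The mean of WT tumours was 6.76 ± 2.08 (SD, n = 7) and that of Tlr4-mutant tumours 4.48 ± 0.95 (n = 5). The difference of -2.28 ± 0.89 (log2, SE) did not pass (limma adjusted p = 0.233). Without WT tumours 17 and 19 it was -1.30 (limma adjusted p = 0.540).

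Ankrd37, a small ankyrin-repeat protein and HIF target of little-known function, was above log2 4 on 5 arrays. These were WT tumours 17 (7.67), 19 (5.45), 21 (4.11) and 22 (4.57) and antibiotic tumour 29 (6.65). Normal livers read 2.58 to 3.19 and Tlr4-mutant tumours 2.19 to 3.05, and all were below log2 4. WT tumours averaged 4.44 ± 1.73 (SD, n = 7) and were at least 1.36-fold above normal liver and above Tlr4-mutant tumours when log2 4 is taken for the dim group. Neither difference passed (limma adjusted p = 0.178 and 0.295).

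Ndrg1 encodes a stress-responsive protein that is induced by low oxygen and by differentiation in many cell types, and it was above log2 4 on every array. Normal livers read 5.61, 5.50 and 6.05 on the log2 scale. WT tumours 16 to 22 read 8.81, 12.02, 8.98, 11.92, 8.59, 7.65 and 8.43. Tlr4-mutant tumours read 9.36, 8.67, 7.12, 7.24 and 6.90, and antibiotic tumours 7.54, 10.23 and 9.77. All 15 tumours were above all 3 normal livers, and WT tumours 17 and 19 stood apart from the other WT tumours, of which the next highest was at 8.98. Ndrg1 rose by 3.77 ± 0.90 in WT tumours (log2, SE; 13.6-fold; limma adjusted p = 0.00445) and by 3.46 ± 1.06 in antibiotic tumours (11-fold; limma adjusted p = 0.0394). The difference of 2.14 ± 0.95 in Tlr4-mutant tumours did not pass (limma adjusted p = 0.114), though it did without WT tumours 17 and 19 (limma adjusted p = 0.0213). With these 2 arrays left out the rise in WT tumours was 2.77 (limma adjusted p = 0.00444).

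The call for Ndrg1 depends on which probe sets are read. The probe set used, and the next in brightness, are of the kinds that may also bind other transcripts. Without such probe sets the gene was represented by one that was below log2 4 in every normal liver, with means of 6.24 ± 2.33 in WT tumours, 5.88 ± 1.22 in antibiotic tumours and 3.80 ± 0.14 in normal liver (log2, SD), and neither contrast passed (limma adjusted p = 0.0835 and 0.276). Of the 4 kept probe sets of Ndrg1, 1 passed the filter only through WT tumours 17 and 19 and antibiotic tumour 29, and the other 3 also had these as their highest arrays. In antibiotic tumours the rise was lost without antibiotic tumour 29 (2.94 log2; limma adjusted p = 0.148), without antibiotic tumour 30 (3.17; 0.0935) or without any of normal livers 1, 2 and 3 (adjusted p = 0.104, 0.105 and 0.0788).

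**Figure D2:**
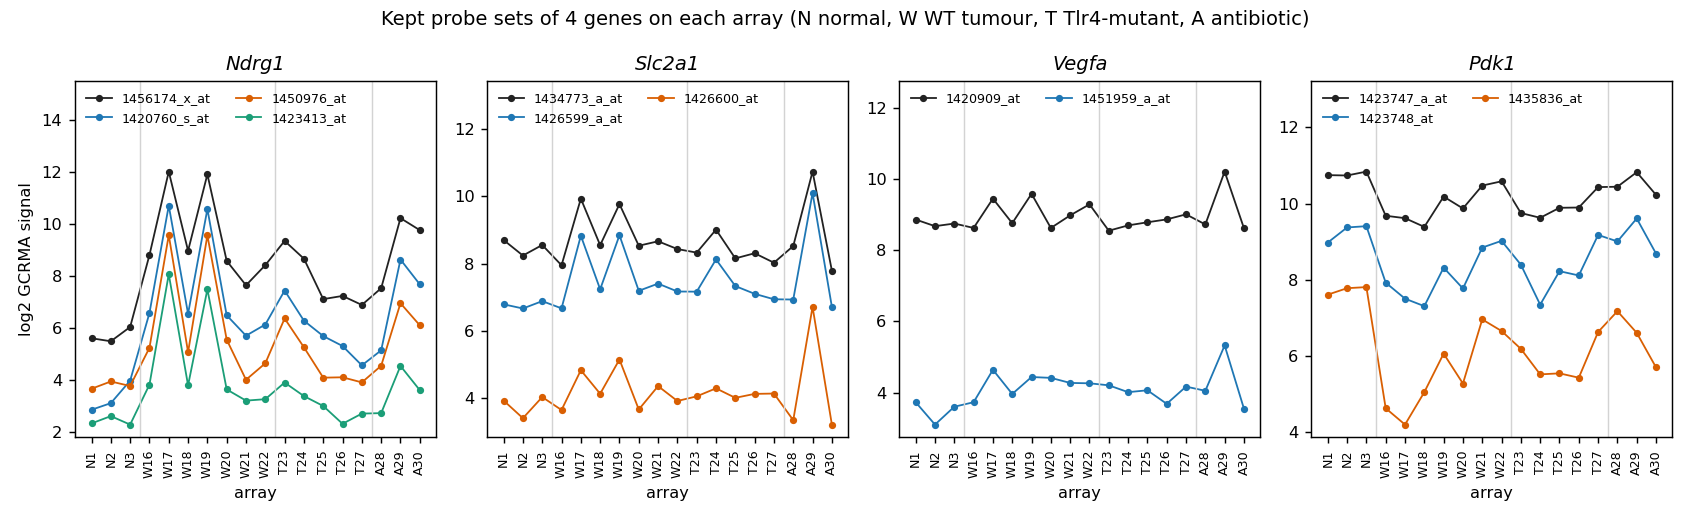
Log2 GCRMA signal (vertical axis) of each kept probe set of Ndrg1, Slc2a1, Vegfa and Pdk1 over the 18 arrays (horizontal axis; lines join the values of 1 probe set and imply no order). The probe sets of a gene differ in brightness. Those of Ndrg1, Slc2a1 and Vegfa have WT tumours 17 and 19 and antibiotic tumour 29 as their highest arrays. In the dimmer probe set of Vegfa, WT tumour 19 exceeds the next array by only 0.02 (log2). The probe sets of Pdk1 are lower in most tumours than in normal liver.

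Slc2a1 encodes GLUT1, the glucose transporter that low oxygen induces, which hepatocytes express far less than the liver transporter Slc2a2. Normal livers read 8.70, 8.24 and 8.55 on the log2 scale, Tlr4-mutant tumours 8.03 to 9.01 and antibiotic tumours 8.52, 10.74 and 7.79. WT tumours ran from 7.95 to 9.93 with a median of 8.55, and tumours 17 (9.93) and 19 (9.77) were the highest. Antibiotic tumour 29 was thus the highest of all arrays and antibiotic tumour 30 the lowest, and no contrast passed. The change in WT tumours was 0.33 ± 0.51 (log2, SE; limma adjusted p = 0.622), and without WT tumours 17 and 19 it was -0.07 (limma adjusted p = 0.915). All 3 probe sets of Slc2a1 had the same 3 highest arrays.

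Ldha encodes the lactate dehydrogenase subunit that favours lactate formation. It read 11.66, 11.80 and 11.72 in normal liver and 12.21 to 12.66 in WT tumours, with a median of 12.34 (log2). Tlr4-mutant tumours read 12.38, 12.30, 12.19, 12.17 and 12.14, and antibiotic tumours 11.92, 12.23 and 11.51. Every WT and Tlr4-mutant tumour lay above every normal liver, while antibiotic tumour 30 lay below them all. Ldha rose by 0.66 ± 0.14 in WT tumours (log2, SE; 1.58-fold; limma adjusted p = 0.00214) and by 0.51 ± 0.15 in Tlr4-mutant tumours (1.42-fold; limma adjusted p = 0.0231), and the antibiotic tumours differed from normal liver by 0.16 ± 0.17 (limma adjusted p = 0.535). The rise in Tlr4-mutant tumours was lost without any of normal livers 1, 2 and 3 (limma adjusted p = 0.0889, 0.0538 and 0.0711). Its 3 highest arrays were WT tumours 19, 16 and 17, at 12.66, 12.55 and 12.49.

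Pdk1 encodes a kinase that switches off pyruvate dehydrogenase and so keeps pyruvate out of the mitochondrion. Although low oxygen induces it in many cells, here it was lower in tumours. Normal livers read 10.75, 10.74 and 10.84, WT tumours 9.39 to 10.58 with a median of 9.87, Tlr4-mutant tumours 9.75, 9.63, 9.89, 9.90 and 10.43, and antibiotic tumours 10.44, 10.82 and 10.23 (log2). All WT and Tlr4-mutant tumours lay below all normal livers, and antibiotic tumour 29 lay within their range. Pdk1 fell by 0.80 ± 0.24 on the log2 scale in WT tumours (SE; limma adjusted p = 0.0155) and by 0.85 ± 0.25 in Tlr4-mutant tumours (limma adjusted p = 0.0250). In antibiotic tumours the difference was -0.28 ± 0.28 (limma adjusted p = 0.527). Its other kept probe sets had differences of -1.15 ± 0.38 and -2.18 ± 0.51 in WT tumours (log2, SE), and both passed when probe sets were tested one by one (limma adjusted p = 0.0247 and 0.00348). In Tlr4-mutant tumours the same probe sets differed by -1.0 ± 0.40, which missed the threshold, and by -1.87 ± 0.54, which passed (limma adjusted p = 0.0814 and 0.0198). The call in WT tumours was lost without normal liver 3 (-0.77; limma adjusted p = 0.0584). That in Tlr4-mutant tumours was lost without normal liver 1, 2 or 3 (limma adjusted p = 0.0722, 0.0695 and 0.0825) or Tlr4-mutant tumour 24 (0.0564).

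Bnip3 encodes a mitochondrial protein that promotes the removal of mitochondria. Its log2 signal was 11.95 to 12.19 in normal liver, 11.15 to 12.05 in WT tumours with a median of 11.37, 10.75 to 12.36 in Tlr4-mutant tumours and 11.76 to 12.45 in antibiotic tumours. The groups overlapped, and no contrast passed. The change in WT tumours was -0.52 ± 0.29 (log2, SE; limma adjusted p = 0.162). With array weights in the fit it passed (limma adjusted p = 0.0423). Car9, the cell-surface carbonic anhydrase often used to mark hypoxic tissue, read 1.37 to 2.04 on all 18 arrays, well under log2 4, and gives no order between the groups.

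**Figure D3:**
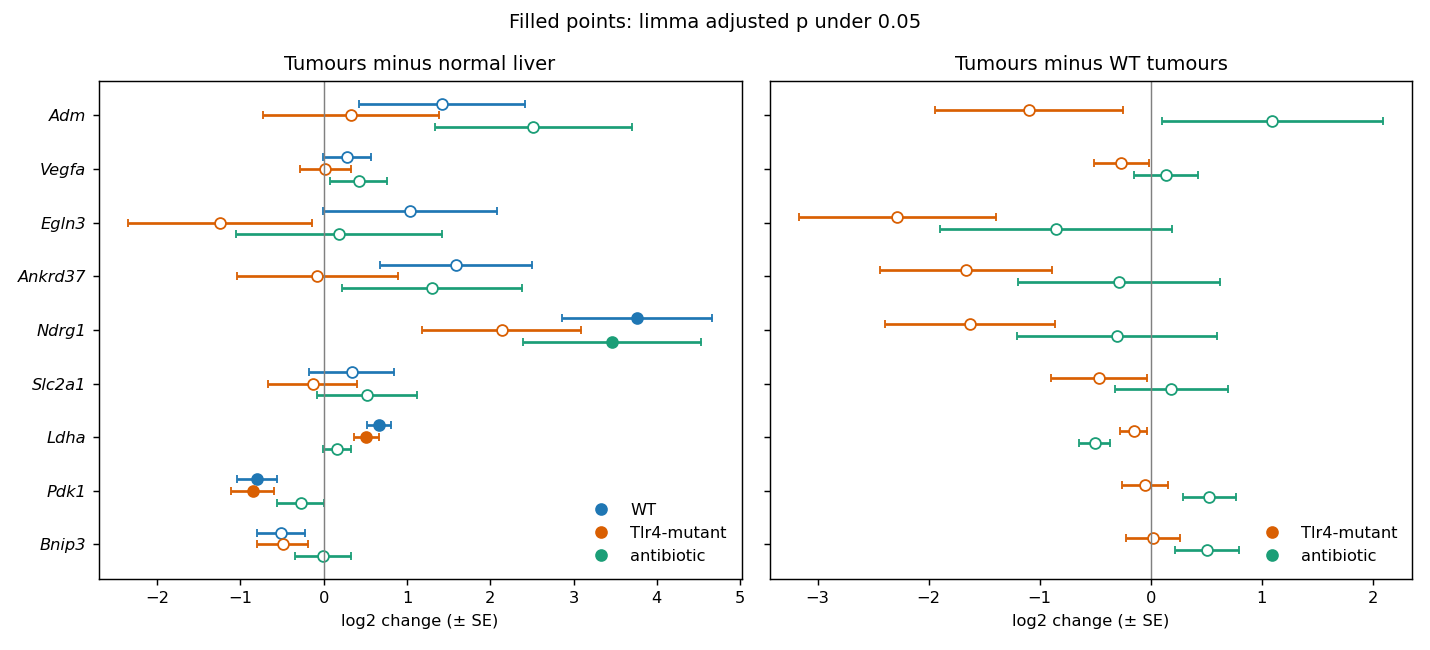
Log2 change of each tested gene (points, with SE bars) for tumours against normal liver, left, and for Tlr4-mutant and antibiotic tumours against WT tumours, right. Filled points passed a limma adjusted p of 0.05: Ndrg1, Ldha and Pdk1 in WT tumours, Ldha and Pdk1 in Tlr4-mutant tumours and Ndrg1 in antibiotic tumours, with none in the right panel.

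Across the contrasts with normal liver, 3 of the 9 genes passed in WT tumours, where 39.0% of the 9053 genes tested did. In Tlr4-mutant tumours 2 of 9 passed, beside 22.3% of all genes, and in antibiotic tumours 1 of 9, beside 15.0%. These shares are near or below those of all genes. Groups did not overlap for 4 of the 9 genes in WT tumours (38.4% of all genes), for 3 in Tlr4-mutant tumours (39.0%) and for 1 in antibiotic tumours (42.3%). The 3 contrasts use the same 3 normal livers, so their results are not independent of each other. The median log2 change of the 9 genes was 0.66 in WT tumours, -0.08 in Tlr4-mutant tumours and 0.42 in antibiotic tumours, beside -0.01, 0.02 and -0.00 for all genes. Without WT tumours 17 and 19 the median in WT tumours was 0.09, and without antibiotic tumour 29 that in antibiotic tumours was -0.01.

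Tumours were compared with each other to ask whether defective Tlr4 or loss of the gut flora goes with a different hypoxia profile. None of the 9 genes passed in limma between Tlr4-mutant and WT tumours, where 24 of all genes (0.265%) did. At an unadjusted p under 0.05 there were 3 genes, Egln3, Ankrd37 and Ndrg1, beside 16.7% of all genes, and all were lower in Tlr4-mutant tumours. Their differences were -2.28, -1.66 and -1.63 on the log2 scale with all arrays, and -1.30, -0.82 and -0.63 without WT tumours 17 and 19. Of the 9 genes 8 had a negative difference, and the groups overlapped for each of them (1.61% of all genes did not overlap). The median difference of the 9 genes was -0.47 on the log2 scale, beside 0.025 for all genes. Without WT tumours 17 and 19 the median of the 9 genes was -0.08.

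Between antibiotic and WT tumours none of the 9 passed in limma (8 of all genes, 0.0884%). At an unadjusted p under 0.05 there were 2, beside 15.5% of all genes: Ldha was lower by 0.50 ± 0.14 and Pdk1 higher by 0.53 ± 0.24 in antibiotic tumours (log2, SE; limma adjusted p = 0.159 and 0.311). Without antibiotic tumour 30 the difference of Ldha was -0.31 (limma adjusted p = 0.506). That array has the highest cholangiocyte marker sum (8.35, against at most 6.17 elsewhere, log2). Of the 5 such markers on the arrays only 1 was kept, and 3 were below log2 4 throughout. The part of those cells was not tested. The groups overlapped for all 9 genes, while 4.04% of all genes did not overlap. Between Tlr4-mutant and antibiotic tumours none passed either (21 of all genes, 0.232%), and the same pair of genes was at an unadjusted p under 0.05, beside 10.3% of all genes. Again the groups overlapped for all 9 genes, and 5.71% of all genes did not overlap. Both tumour contrasts with the WT group share its 7 arrays. The SE of Adm in the antibiotic contrast, 1.00 on the log2 scale, goes with values of 3.33, 9.26 and 2.91 in the 3 antibiotic tumours.

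The clearest pattern was therefore not between groups but between single tumours, and it was seen only after the values had been examined. WT tumours 17 and 19 and antibiotic tumour 29 held the 3 highest of the 18 values for 6 of the 9 tested genes: Adm, Vegfa, Egln3, Ankrd37, Ndrg1 and Slc2a1. The same was true of 126 of the 9053 genes tested (1.39%). Adm passed the filter on low signal only through these 3 arrays, so its place among the 6 was fixed by the filter, as was that of 6 of the 126 genes. Of the other 8 tested genes 5 had these arrays highest. Of all 22 probe sets, with no filter, 14 did, all of them probe sets of the same 6 genes. The share over all probe sets with no filter was not computed. The 3 tumours were not alike in every gene. Antibiotic tumour 29 led in Adm, Vegfa and Slc2a1, WT tumour 17 in Ankrd37 and Ndrg1, and WT tumour 19 in Egln3. No Tlr4-mutant tumour was among them, and the highest Tlr4-mutant values were those of tumours 24 for Slc2a1 (9.01), 23 for Ndrg1 (9.36) and 27 for Egln3 (5.62), Ankrd37 (3.05) and Vegfa (9.01). The gap from the lowest of these 3 arrays to the next highest array was widest for Egln3 (1.14) and Adm (1.08) and narrow for Vegfa (0.16, log2).

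**Figure D4:**
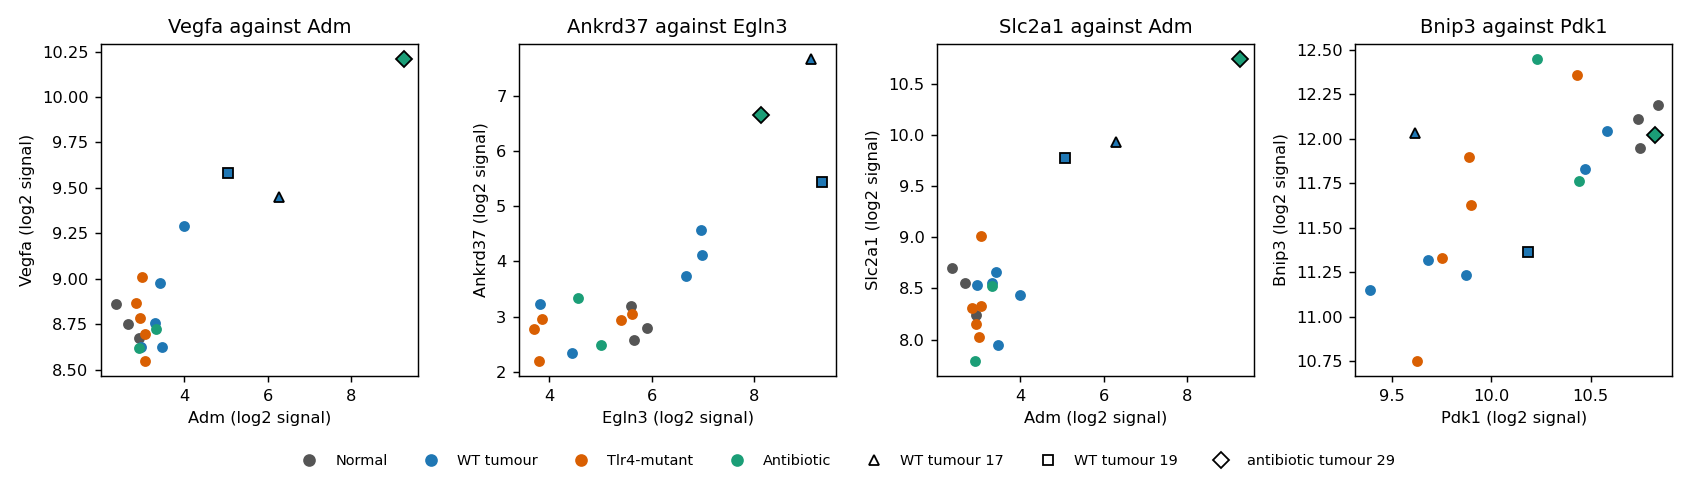
Log2 GCRMA signal of 1 gene against another for 4 pairs (each axis a gene, each point an array, coloured by group). WT tumours 17 and 19 and antibiotic tumour 29 lie apart from the rest for Adm with Vegfa, Egln3 with Ankrd37 and Adm with Slc2a1, and do not for Pdk1 with Bnip3.

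As these 3 arrays were the highest for 6 genes, a correlation over all 15 tumours can rest on them. Of the 36 pairs of the 9 genes, 15 had a Pearson correlation at an adjusted p under 0.05 over the 15 tumours (two-sided permutation test, Benjamini-Hochberg over 36), all positive. They were the pairs among the 6 genes above except Vegfa with Ndrg1, and the pair of Bnip3 and Pdk1. After the group means were subtracted 17 passed, and by Spearman rank correlation 2 did (14 after the group means were subtracted). Without the 2 arrays farthest from the median of 1 gene of the pair 7 passed. The arrays left out there could differ between pairs, and extremes of the other gene were not considered. Over the other 12 tumours none passed. The closest pairs there were Egln3 with Ankrd37 (r = 0.78, rho = 0.69, permutation p = 0.00301 for r, adjusted p = 0.0598) and Bnip3 with Pdk1 (r = 0.78, rho = 0.79, permutation p = 0.00332 for r, adjusted p = 0.0598). All 15 pairs thus passed only with WT tumours 17 and 19 and antibiotic tumour 29 included. For Bnip3 with Pdk1, however, r was lower with these arrays (0.63 over the 15 tumours) than without them. Of the other 12 tumours, Ankrd37 was above log2 4 in WT tumours 21 and 22 alone, so its correlation there rests mostly on dim values.

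The genes whose pattern was most like that of Egln3, Adm and Ankrd37, the tested genes with the largest SD over tumours, were listed by Pearson correlation over the 15 tumours, a description that rests largely on the same 3 arrays. For Egln3 they were Ltbp3, a binding protein of latent TGF-beta (r = 0.90; 0.71 over the other 12 tumours), Stc1, the secreted glycoprotein stanniocalcin 1 (0.89; 0.76), Ankrd37 (0.88; 0.78) and the sorting nexin Snx18 (0.87; 0.58). Stc1 read 9.81 and 9.88 in WT tumours 17 and 19, 5.81 in antibiotic tumour 29 and at most 4.70 in the other arrays (log2). For Adm they were Angpt2, an endothelial ligand that loosens vessels (0.93; 0.59), Vegfa (0.92; 0.58), Ppp1r18, a phosphatase regulatory subunit (0.91; 0.23), and Slc2a1 (0.90; 0.20). For Ankrd37 they were the zinc finger gene Zfand2a (0.94; 0.72), the sialyltransferase St3gal2 (0.94; 0.63), the Myb-family transcription factor Mybl1 (0.93; 0.44) and Vopp1 (0.92; 0.67). Adm was below log2 4 on all of the other 12 tumours, so its correlations there say nothing of likeness. Ankrd37 exceeded log2 4 there in WT tumours 21 and 22 alone, so its correlations rest mostly on dim values. Angpt2, St3gal2 and Mybl1 passed the filter on low signal only through WT tumours 17 and 19 and antibiotic tumour 29, as Adm did.

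Further genes of the pathway were taken from 6 lists with 68 genes tested. Of these 22 passed in WT tumours against normal liver (32.4%, beside 39.0% of all genes), 10 in Tlr4-mutant tumours (14.7%, beside 22.3%) and 10 in antibiotic tumours (14.7%, beside 15.0%), so the counts of passing genes in the lists were together at or below those of all genes. Of 14 HIF subunits and oxygen-sensing genes, 11 were tested. In WT tumours 1 rose and 1 fell against normal liver: Epas1, which encodes the alpha subunit HIF-2, by 0.78 ± 0.23 (log2, SE; limma adjusted p = 0.0157), and Hif1an, a hydroxylase that restrains HIF, by -0.47 ± 0.13 (limma adjusted p = 0.0114). The call of Epas1 was lost without normal liver 1 (limma adjusted p = 0.0665) and that of Hif1an without normal liver 2 (0.0803). Vhl and Cited2, which competes with HIF for a coactivator and is itself HIF-induced, were highest in WT tumours 17 and 19 and antibiotic tumour 29. Vhl read 5.66, 5.40 and 5.41 there and at most 5.32 elsewhere. Cited2 read 9.80, 9.0 and 8.71 there and at most 8.52 elsewhere (log2). Hif1a itself read 10.03 and 10.48 in WT tumours 17 and 19, 11.15 in antibiotic tumour 29, its highest value, and at most 10.94 elsewhere.

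Of 25 other hypoxia-induced genes 15 were tested, and in WT tumours 4 rose and 2 fell. Ier3, a stress-induced survival gene, was at least 25-fold higher (limma adjusted p = 0.000291), with every normal liver below log2 4. Ddit4, an inhibitor of mTOR signalling, rose by 3.23 ± 0.66 (log2, SE; limma adjusted p = 0.00165) and P4ha1, a collagen prolyl hydroxylase, by 1.23 ± 0.45 (0.0391). Kdm3a, a histone demethylase, was the other rise. Higd1a, a mitochondrial inner membrane protein, fell by 0.87 on the log2 scale (limma adjusted p = 0.00135) and Mxi1, a Myc antagonist, by 0.69 (0.00781). In Tlr4-mutant tumours 1 rose and 1 fell, Ier3 (at least 8.21-fold) and Higd1a, and in antibiotic tumours 2 rose and 1 fell, Ier3 (at least 34.9-fold), Ddit4 and Higd1a. WT tumours 17 and 19 and antibiotic tumour 29 were the 3 highest arrays for Ier3, Pfkfb3, a kinase that drives glycolysis, and Ero1a, an oxidase of the endoplasmic reticulum. Ero1a read 9.33, 9.51 and 9.5 there and at most 8.24 elsewhere, and Pfkfb3 8.82, 9.51 and 8.32 against at most 7.78 (log2).

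Of 20 glycolysis genes 13 were tested. In WT tumours Pfkp, a phosphofructokinase, was at least 3.32-fold higher (limma adjusted p = 0.0149). The muscle forms of phosphofructokinase, Pfkm, and enolase, Eno3, were lower: Pfkm fell by 1.00 on the log2 scale (limma adjusted p = 0.000562), and Eno3, below log2 4 in every WT tumour, was at least 1.06-fold lower (0.0331). Hk2, Aldoa, Tpi1 and Pkm, 4 of the 13, had WT tumours 17 and 19 and antibiotic tumour 29 as their 3 highest arrays, beside 1.39% of all genes tested. Hk2, the inducible hexokinase, read 5.03, 7.10 and 7.33 there, at most 4.21 in the other tumours and 2.40 to 2.59 in normal liver (log2). In Tlr4-mutant tumours none of the glycolysis genes rose and 2 fell, Pfkm and Pklr, and in antibiotic tumours none rose and Pfkm fell.

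Around pyruvate, 12 of 14 genes for pyruvate dehydrogenase, its regulators and lactate transport were tested, and in WT tumours 2 rose and 5 fell. Slc16a1, a lactate and pyruvate transporter, rose by 1.07 ± 0.26 (log2, SE; limma adjusted p = 0.00520), and the pyruvate dehydrogenase phosphatase Pdp1, which opposes Pdk1, was at least 1.46-fold higher (0.00906). The other phosphatase, Pdp2, fell by 2.48, the phosphatase regulatory subunit Pdpr by 1.36 and the dehydrogenase subunit Dlat by 0.82 on the log2 scale (limma adjusted p = 0.000117, 0.000327 and 0.0112). Thus genes for the kinase Pdk1, the phosphatase Pdp2 and subunits of the enzyme were lower together. In Tlr4-mutant and in antibiotic tumours none rose and 4 fell, Pdp2, Pdpr, Pdhb and Pdhx in both. None of the genes of this list had its 3 highest values in WT tumours 17 and 19 and antibiotic tumour 29.

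Of 15 receptors and ligands related to Vegfa and Adm 10 were tested, and in WT tumours the lymphatic growth factor Vegfc rose by 1.02 ± 0.34 (log2, SE; limma adjusted p = 0.0243) and the VEGF co-receptor Nrp1 fell by 0.64 (0.0422). Flt1, a VEGF receptor, read 4.75 and 6.46 in WT tumours 17 and 19 and 5.56 in antibiotic tumour 29, its 3 highest values. Angpt2 read 4.09, 4.13 and 5.54 there and at most 3.73 elsewhere (log2), so it passed the filter only through these arrays and had to be highest in them. Kdr, the main VEGF receptor of endothelium, read 2.95 and 5.69 in WT tumours 17 and 19, 7.68 in antibiotic tumour 29 and 5.12 to 7.31 in the other arrays.

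Of 22 paralogs of the 10 genes 11 were tested, and in WT tumours 1 rose and 2 fell: Vegfc, the carbonic anhydrase Car14 (by 2.88 on the log2 scale; limma adjusted p = 0.00965) and Ndrg2, a relative of Ndrg1 (by 1.37; 0.0156). Ndrg2 and Ndrg1 thus moved in opposite directions. None of the 11 paralogs tested had its 3 highest values in WT tumours 17 and 19 and antibiotic tumour 29. Paralogs of the lactate and pyruvate genes separated these 3 tumours. Pdk4, a kinase induced by fasting, read 8.25 and 9.71 in WT tumours 17 and 19 but 5.16 in antibiotic tumour 29, and Ldhb, the lactate dehydrogenase subunit of oxidative tissue, 6.04 and 8.42 but 3.42 (log2).

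**Figure D5:**
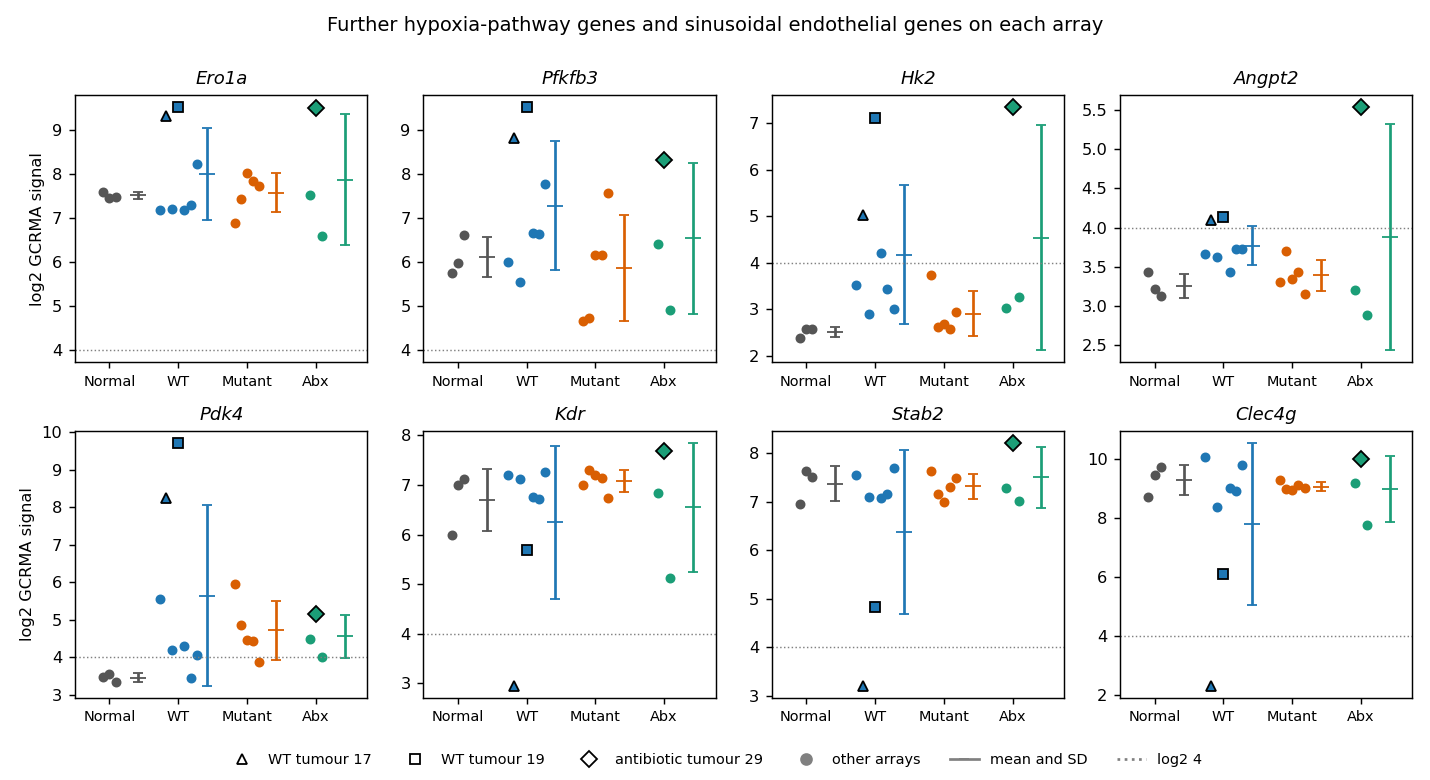
Log2 GCRMA signal (vertical axis) of further genes on each array, by group, with mean and SD bars and the dotted line at log2 4. Ero1a, Pfkfb3, Hk2 and Angpt2 were highest in WT tumours 17 and 19 and antibiotic tumour 29, Pdk4 was high in the first pair alone, and the endothelial genes Stab2 and Clec4g were lowest in that pair (3.21 and 4.84, 2.33 and 6.11), as was Kdr in WT tumour 17 (2.95).

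In these lists the calls of P4ha1, Nrp1, Vegfc, Eno3, Dlat, Pfkp and Ndrg2 were lost when single arrays were left out. That of P4ha1 went without any normal liver and without either of WT tumours 17 and 22 (limma adjusted p up to 0.154), that of Nrp1 without any normal liver and without any of WT tumours 17, 19 and 20 (up to 0.181), that of Vegfc without either of normal livers 1 and 3 (up to 0.115) and that of Eno3 without either of normal livers 1 and 2 or any of WT tumours 16, 18, 19 and 20 (up to 0.190). Processing ended some calls too: that of Vegfc with probe sets averaged per gene (0.58 log2; limma adjusted p = 0.0969), that of P4ha1 with no filter (0.0583) or quantile normalization (0.0610) and that of Nrp1 with no filter (0.0586). Dlat was lost without normal liver 2 or 3 (up to 0.0616), Pfkp without normal liver 2 (0.0559) and Ndrg2 without normal liver 1 (0.0610). Without WT tumours 17 and 19, P4ha1 and Nrp1 were lost (limma adjusted p = 0.0806 and 0.0842), and the 6 lists in the order given had 1, 4, 1, 2, 1 and 1 rises and 2, 2, 3, 4, 0 and 2 falls. In the Tlr4-mutant and the antibiotic contrast with WT tumours none of the 68 list genes tested passed in limma. At an unadjusted p under 0.05 there were 7 and 6 of them (10.3% and 8.82%), below the 16.7% and 15.5% of all genes. The genes of smallest p in their lists were Ddit4 (-1.58 ± 0.56 log2, SE, in Tlr4-mutant tumours; limma adjusted p = 0.208), Egln2 (0.46 ± 0.16; 0.204), Flt1 (at least 1.24-fold lower; 0.288), Mxi1 (0.62 ± 0.18 in antibiotic tumours; 0.178), Slc16a1 (-0.54 ± 0.22 in Tlr4-mutant and -0.69 ± 0.26 in antibiotic tumours; 0.247 and 0.242), Slc2a2 (0.51 ± 0.23 in antibiotic tumours; 0.295), Pgam1 (-0.38 ± 0.18; 0.311) and Pfkm (0.36 ± 0.15 in Tlr4-mutant tumours; 0.245). In antibiotic tumours Egln2 (0.37 ± 0.19; limma adjusted p = 0.357) and Nrp2 (0.72 ± 0.53; 0.512) had the smallest p of their lists.

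Markers of other liver cells moved with the 3 tumours, and not all one way. Of 9 endothelial markers 7 were kept, and Vwf was below log2 4 on every array. The log2 of their summed signal was 6.82 in WT tumour 17, the lowest of all arrays, 8.49 in WT tumour 19 and 11.30 in antibiotic tumour 29, the highest. It was 9.53 to 10.45 in normal liver, 6.82 to 10.86 in WT, 10.08 to 10.44 in Tlr4-mutant and 8.99 to 11.30 in antibiotic tumours. The sinusoidal genes Clec4g and Stab2 read 2.33 and 3.21 in WT tumour 17 and 6.11 and 4.84 in WT tumour 19, against 10.01 and 8.22 in antibiotic tumour 29. Of 9 macrophage and Kupffer cell markers 8 were kept, with Marco below log2 4 throughout, and the sum was 9.12 and 9.58 in WT tumours 17 and 19 and 11.56 in antibiotic tumour 29. Its range was 9.60 to 10.74 in normal liver, 9.12 to 12.37 in WT, 9.79 to 12.03 in Tlr4-mutant and 9.09 to 11.95 in antibiotic tumours. Of 9 stellate cell and fibroblast markers 7 were kept, with Col1a1 and Des below log2 4 throughout, and their sum was highest in these 3 tumours, at 12.42, 12.59 and 12.39, beside 10.38 to 11.48 in normal liver and 11.44 to 11.91 in the other tumours. Reln was highest in WT tumours 17 and 19 (12.28 and 12.13), where Dcn was lowest (4.71 and 6.77), while Dcn (10.99) and Col3a1 (10.41) were highest in antibiotic tumour 29. Their part in the pattern of the hypoxia genes was not tested, and fewer cells of a type and less RNA per cell cannot be told apart in bulk tissue. By principal components WT tumours 17 and 19 also stood apart from all other arrays on the second axis (14.4% of the variance), and antibiotic tumour 29 did not. The excess of the Gapdh 3′ probe set was 0.20, 0.56 and 0.26 in the 3 tumours and 0.30 to 1.02 in the others.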

How the data were processed

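The authors deposited log2 signals per probe set, background-corrected and summarised with GCRMA per the submitters' processing notes (version not given in the sources used here); 0 columns were left unmapped to a sample. Arrays have no read depth, and their number limits the precision. Of 45101 probe sets, 64 controls and those with several symbols (932) or none (9160) were left out. Probe sets above log2 4 on at least 3 arrays were kept (16663), and of several kept probe sets of a gene the one brightest on average stood for it (9053 genes). Where a group lay below log2 4 throughout, the fold was taken against log2 4 and is given as "at least".

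A linear model of 4 group means over all 18 arrays was fitted with limma 3.58.1 in R 4.3.3, two-sided, with Benjamini-Hochberg adjustment over 9053 genes. It was also tested on simulated data in which a gene had the same spread in all 4 groups. The simulation therefore does not cover genes whose spread differs between groups, such as Adm. The genes, the lists of related genes and the cell markers were chosen with earlier results of these data known. List genes named are the 3 largest rises and falls past an adjusted p of 0.05, or else the gene of smallest p; per-array values of list and marker genes, Kdm3a, Pdhb, Pdhx and Pklr were named after their values were seen, as were WT tumours 17 and 19 and antibiotic tumour 29. Correlations were tested with 100000 permutations (scipy 1.17.1, python 3.11.15). Settings varied were the filter (none, or log2 6), other choices of probe set, centred or quantile-normalized arrays, robust, trended and weighted variances, fits of only the compared groups and leaving out arrays. Leaving out the 3 high arrays together and Spearman correlation were added after seeing the data.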

Additional observations from a re-analysis of the deposited data

How the results depend on the processing

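The number of the 9 genes that passed against normal liver was 3 in WT tumours and stayed within 1.5 times of that in every alternative (2 to 4 with 1 array left out). In Tlr4-mutant tumours it was 2, and 0 to 2 with 1 array left out. In antibiotic tumours it was 1, that of Ndrg1, and 0 without the filter (adjusted p = 0.0595), with probe sets averaged per gene (0.126) or without probe sets that may bind other transcripts (0.276), and 0 to 1 with 1 array left out. Between tumour groups it was 0 in every alternative run, including each left-out array. Of 36 gene pairs, 15 passed over the tumours by Pearson and 2 by Spearman correlation. After the group means were subtracted 17 passed by Pearson and 14 by Spearman correlation. Without the 2 arrays farthest from the median of 1 gene of the pair 7 passed by Pearson correlation. Without WT tumours 17 and 19 and antibiotic tumour 29 none passed. The cause was not tested. No value past the threshold reversed; 55 values under alternatives, from 19 results and none past the threshold, had the other sign. No paired analysis was possible because the groups share no sample numbers. Single genes that gained a call were Adm, Vegfa and Bnip3 in WT tumours, given above, and Ndrg1 in Tlr4-mutant tumours with array weights (adjusted p = 0.0134), with only the compared groups fitted (0.0232), without WT tumours 17 and 19 (0.0213) and without the 3 high arrays (0.0173). Signals below log2 4 limit what Car9, Adm and Ankrd37 can show, and groups of 3 arrays limit the contrasts that use them.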
